A study of Mus musculus with 8 samples.

Results

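The genes described here encode 2-oxoglutarate dependent dioxygenases other than the TET enzymes. They were taken by symbol from a list of 50: JmjC histone demethylases, HIF hydroxylases, the AlkB family with Fto, collagen hydroxylases, the Ogfod and Riox genes and a few enzymes of small molecules. Of these, 45 were measured among 12294 genes. Kdm4d, P4ha2, Plod2, Bbox1 and Tmlhe were not analysed here. Kdm1a and Kdm1b, which use FAD and not 2-oxoglutarate, are not members.

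These enzymes use iron, oxygen and 2-oxoglutarate to hydroxylate a protein, a nucleic acid or a small molecule, and many remove methyl groups that way. Mutant IDH1 makes 2-hydroxyglutarate, a look-alike of 2-oxoglutarate that can block them in competition with it. AG120 (ivosidenib) inhibits mutant IDH1 and so lowers 2-hydroxyglutarate, while AZA (azacitidine) is a cytidine analogue that traps DNA methyltransferases. RNA levels say how much transcript of each enzyme was present, and nothing of enzyme activity.

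Polyadenylated 3′ ends were sequenced from mouse leukemic progenitors named I1DN, in a series on acute myeloid leukemia with mutant IDH1 by its title. The labels do not spell out which lesions the name stands for, nor whether the cells come from 1 clone. Recipient mice carried transplanted I1DN cells and were given AG120 with AZA (AG120_AZA), AG120, AZA or vehicle for 5 days, and cKit+ CD11b- cells were sorted from each mouse. There were 8 libraries, 2 in each of the 4 groups, with doses, mouse age and strain not given in the sources used here. The labels do not say that each library is another mouse, so p-values measure only the spread between these libraries, which may be technical. The groups differ in the sorted cells' own markers: Kit stood at 4.51 and 4.26 log2 CPM in AG120_AZA, 5.15 and 5.84 in AG120, 6.65 and 5.54 in AZA, and 6.31 and 6.59 in vehicle. Itgam, which encodes CD11b, lay between 2.10 and 4.53 log2 CPM over the 8 libraries. All levels are log2 CPM as the authors deposited them; the authors' scaling removed library totals, so depth is known only as a lower bound, from 105 to 149 count steps for the median gene of a library, where a step is 1 distinct value above the library's lowest. In bulk RNA, fewer cells of a type and less RNA per cell cannot be told apart.

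Among the 45 measured genes, Kdm5b was the 1 called, a share no higher than that of all genes, and Asph and Egln3 missed the threshold narrowly with larger differences than Kdm5b for AG120. In AG120_AZA against vehicle it was the 1 member called of 45, against 3.02% of all genes, and over both AZA levels it was again the 1 member called with AG120, against 5.85% of all genes (limma, adjusted p below 0.05). No member was called in AG120 against vehicle, where 0.578% of all genes were, nor in AG120_AZA against AZA, where 2.26% were. In AZA against vehicle, AG120_AZA against AG120, AZA over both AG120 levels and the AG120 by AZA interaction, 0 members and 0% of all genes were called by limma. At an unadjusted p below 0.05, limma gave 1 member and 432 genes (3.51%) in AZA against vehicle, 6 members and 1237 genes (10.1%) in AG120_AZA against AG120, 2 members and 761 genes (6.19%) for AZA over both AG120 levels, and 2 members and 765 genes (6.22%) for the interaction. The same threshold gave 3 members in AG120 against vehicle, where all genes gave 13.1%, and 8 in AG120_AZA against AZA, where all genes gave 19.6%. In the 4 comparisons with no gene called, a fit with vooma weights also called 0 genes, and a fit without the mean-variance trend called 2 genes in AZA against vehicle, neither a member, and 0 in the other 3.

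The measured genes as a list lay near the background. With AG120 over both AZA levels, 24 had positive and 21 negative log2 changes, their median was 0.02 against 0.01 for all genes, and the median size of a change was 0.28 on the log2 scale against 0.35. In AG120_AZA against vehicle 23 were positive and 22 negative, with a median of 0.10 against 0.02, and 6 had an unadjusted p below 0.05, where all genes gave 21.4%. With AZA over both AG120 levels 18 were positive and 27 negative, with a median of -0.08 against 0.00. At an unadjusted p below 0.05 the AG120 effect held 9 of 45 members, where all genes gave 22.9%. The 4 libraries with AG120 lay wholly above or below the 4 without in 3 members (Jmjd4, Asph and Kdm7a), where all genes gave 14.0%; for AZA 0 members did so, where all genes gave 2.06%.

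**Figure D1:**
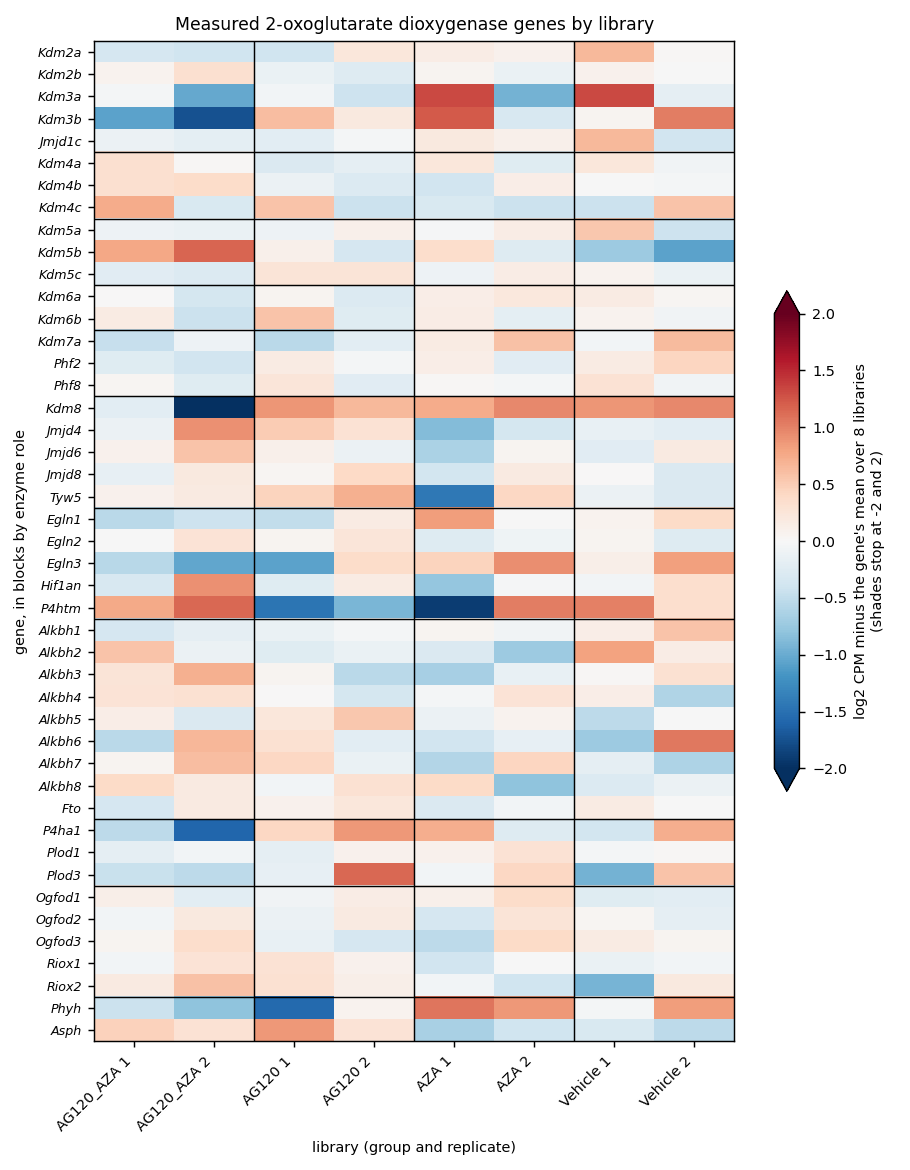
Heat map of the 45 measured genes (down, in blocks by enzyme role) in the 8 libraries (across). Colour is log2 CPM minus the gene's mean over all libraries, with shades stopping at -2 and 2; Kdm5b is red in AG120_AZA and blue in vehicle, and Kdm8 is dark blue in AG120_AZA replicate 2 alone.

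Kdm5b encodes a demethylase that takes methyl groups off H3K4, a mark of active promoters. It lies on chromosome 1 at 134560171-134635285, plus strand (GRCm38, GENCODE M21). Its level was 7.74 and 8.12 log2 CPM in AG120_AZA, 7.06 and 6.63 in AG120, 7.31 and 6.71 in AZA, and 6.25 and 5.90 in vehicle. The AG120_AZA libraries were the 2 highest and the vehicle libraries the 2 lowest of the 8, with the single-drug libraries between them and overlapping each other.

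Kdm5b rose 3.63-fold in AG120_AZA against vehicle, a log2 change of 1.86 ± 0.27 (SE; limma adjusted p = 0.00564). Leaving out AG120_AZA replicate 2 ended the call (1.67, adjusted p = 0.0729), as did a fit without the mean-variance trend (adjusted p = 0.0840). With AG120 over both AZA levels it rose by a log2 change of 0.85 ± 0.18 (adjusted p = 0.0214). Of 8 omissions of a single library, 4 ended this call: those of AG120_AZA replicate 2 (adjusted p = 0.0593), of AG120 replicate 1 (adjusted p = 0.0963), of AZA replicate 2 (adjusted p = 0.0546) and of vehicle replicate 2 (adjusted p = 0.0605). A fit without the trend ended it too (adjusted p = 0.0999).

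Each step from vehicle to 1 drug and from 1 drug to both had a positive Kdm5b difference. It was 0.77 ± 0.27 in AG120 against vehicle, 0.92 ± 0.27 in AG120_AZA against AZA, 0.94 ± 0.27 in AZA against vehicle and 1.09 ± 0.27 in AG120_AZA against AG120, none past the adjusted threshold (limma adjusted p = 0.254, 0.101, 1 and 0.384). The interaction was 0.15 on the log2 scale with a 95% interval from -0.69 to 0.98, so the fit does not tell an additive effect from a moderately larger or smaller one. With AZA over both AG120 levels the Kdm5b difference was 1.01 ± 0.18 and ranked 2 of 12294 genes by unadjusted p. It did not pass limma's adjusted threshold (adjusted p = 0.771).

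Kdm5a and Kdm5c, which act on the same histone mark, were not called in any comparison. Kdm5a stood at 5.39 and 5.36 log2 CPM in AG120_AZA, 5.39 and 5.59 in AG120, 5.47 and 5.63 in AZA, and 6.03 and 5.07 in vehicle. Kdm5c stood at 5.51 and 5.47 in AG120_AZA, 6.004 and 6.002 in AG120, 5.64 and 5.88 in AZA, and 5.80 and 5.60 in vehicle. The vehicle libraries of Kdm5a spanned all the others, and in Kdm5c the AG120 libraries were the 2 highest; the differences with AG120 over both AZA levels were -0.12 ± 0.21 in Kdm5a and 0.02 ± 0.18 in Kdm5c.

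Markers of blood lineages also differed between the groups. The summed level of 6 of 6 basophil and mast cell markers was 1847 to 2482 CPM in AG120_AZA, 1423 to 2419 in AG120, 1222 to 1295 in AZA and 567 to 1328 in vehicle. The sum of 9 of 9 erythroid markers was 3553 to 3612 CPM in AG120_AZA, 677 to 1685 in AG120, 1564 to 3576 in AZA and 1292 to 1914 in vehicle. One globin gene, Hbb-bs, carried 24.9% to 88.7% of that sum, and without it the other 8 markers summed to 980 to 1267 CPM in AG120_AZA, 508 to 887 in AG120, 215 to 404 in AZA and 195 to 345 in vehicle, so that AG120 stood above vehicle. The sum of 6 of 6 eosinophil markers was 481 to 1172 CPM in AG120_AZA, 1150 to 2365 in AG120, 179 to 246 in AZA and 36.5 to 368 in vehicle. The sum of 4 of 4 progenitor markers was 147 to 156 CPM in AG120_AZA, 216 to 303 in AG120, 551 to 723 in AZA and 748 to 801 in vehicle. Fcer1a, Ear1, Ear2 and Flt3 sat at the lowest value of a library at least once, and no erythroid marker did. Of the same lists, 3 of 6 basophil and mast cell, 6 of 9 erythroid and 3 of 6 eosinophil markers were called higher with AG120 over both AZA levels, and 3 of 4 progenitor, 1 of 9 neutrophil and 3 of 6 measured monocyte markers lower. Of all genes, 5.85% were called in that comparison. The 3 remaining erythroid markers, Hba-a1, Hbb-bs and Alas2, had negative differences with AG120, none of them called. The megakaryocyte sum (5 of 5 markers) was 3590 to 3862 CPM in AG120_AZA, 539 to 1400 in AG120, 2223 to 2689 in AZA and 2429 to 2598 in vehicle, with 0 called. Pf4 carried 26.3% to 76.7% of it. Without Pf4 it was 989 to 1017 CPM in AG120_AZA and 397 to 714 in AG120. It was then 654 to 934 in AZA and 606 to 1056 in vehicle, which overlapped each other group. Cpa3 carried 59.0% to 82.7% of the basophil and mast cell sum and Prg2 73.8% to 92.8% of the eosinophil sum. Without them, both sums stayed higher in all libraries with AG120 than in those without. The neutrophil sum (9 of 9 markers, Itgam among them) was 1068 to 2821 CPM in AG120_AZA, 3919 to 6343 in AG120, 11025 to 15363 in AZA and 2852 to 12986 in vehicle, and the monocyte sum (6 of 7 markers) was 206 to 262 CPM in AG120_AZA, 193 to 312 in AG120, 503 to 642 in AZA and 417 to 1081 in vehicle. The part of these shifts in the Kdm5b result was not tested.

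**Figure D2:**
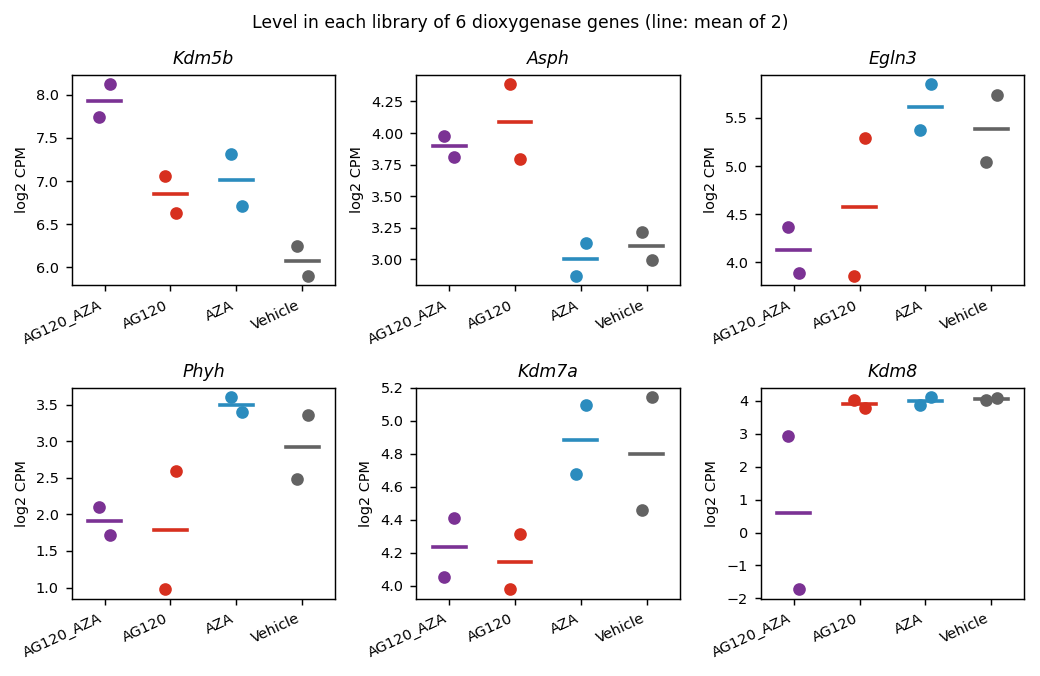
Level in log2 CPM (vertical axes, each with its own range) of 6 genes in the 4 groups; each point is a library and each line the mean of 2. Kdm5b is highest in AG120_AZA and lowest in vehicle, Asph is higher and Kdm7a lower in all 4 libraries with AG120 than in the 4 without, and Kdm8 is low in AG120_AZA, at 2.92 and -1.72.

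The start-site regions of Kdm5b, of Egln3, the HIF hydroxylase gene with the lowest p for AG120, and of Phyh, which leaned the same way as Egln3, are shown since their transcripts were among the 4 members of lowest p for AG120. Asph, the remaining one of the 4, is named only. Each is RefSeq's 250 bases before and 50 after a start site (GRCm38.p6), 5′ to 3′ on the gene's strand, and capitals mark ACGTG or GCGTG, the core letters of hypoxia response elements, on either strand. The Kdm5b region is chr1:134559928-134560227 (plus strand), that of Egln3 chr12:54203825-54204124 (minus strand) and that of Phyh chr2:4918746-4919045 (plus strand).
Kdm5b: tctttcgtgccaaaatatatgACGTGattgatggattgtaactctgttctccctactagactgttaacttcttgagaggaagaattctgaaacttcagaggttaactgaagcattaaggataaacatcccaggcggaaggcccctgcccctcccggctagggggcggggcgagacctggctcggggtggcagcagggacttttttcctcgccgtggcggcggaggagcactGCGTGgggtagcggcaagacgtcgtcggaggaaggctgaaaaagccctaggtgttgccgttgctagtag
Egln3: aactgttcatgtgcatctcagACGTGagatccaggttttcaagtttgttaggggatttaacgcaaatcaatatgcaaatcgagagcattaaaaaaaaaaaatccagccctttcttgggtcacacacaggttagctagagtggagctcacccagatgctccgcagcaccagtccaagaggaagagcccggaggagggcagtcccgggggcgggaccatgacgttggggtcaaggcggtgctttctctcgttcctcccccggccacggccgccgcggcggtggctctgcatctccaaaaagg
Phyh: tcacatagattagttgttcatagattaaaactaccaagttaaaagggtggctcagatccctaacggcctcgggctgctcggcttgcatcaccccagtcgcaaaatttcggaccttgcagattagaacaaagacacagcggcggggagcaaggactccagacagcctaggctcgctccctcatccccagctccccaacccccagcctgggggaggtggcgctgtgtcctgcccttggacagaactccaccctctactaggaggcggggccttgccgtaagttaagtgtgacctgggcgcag
Kdm5b had 2 matches, Egln3 had 1 and Phyh 0, and the regions hold 17, 16 and 12 CG pairs in that order. At least 1 match stood in 24 of the 38 measured members whose RefSeq region was counted (63.2%). Among the 27025 regions counted, the first per symbol, 11836 had a match (43.8%). The count does not cover every RefSeq region, so a member outside it need not lack one. ACGTG within CACGTG matches on both strands and counts once per region. The counted regions of members had a median of 20 CG pairs and all counted regions a median of 7, and both motifs contain CG. A match is a description of the letters, not of binding.

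The HIF hydroxylases mark the hypoxia-inducible factors for decay or inactivity when oxygen is present. Egln3, a prolyl hydroxylase that is itself a known HIF target, stood at 4.37 and 3.89 log2 CPM in AG120_AZA, 3.86 and 5.29 in AG120, 5.37 and 5.85 in AZA, and 5.04 and 5.74 in vehicle. The AG120_AZA libraries lay below all 4 libraries without AG120, and AG120 replicate 2 overlapped them. Its difference with AG120 over both AZA levels was -1.15 ± 0.32 and missed the threshold (limma adjusted p = 0.0559). It passed without vehicle replicate 1 (-1.36, adjusted p = 0.0320) and without AG120 replicate 2 (-1.50, adjusted p = 0.00686).

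Egln1, the main oxygen-sensing prolyl hydroxylase, stood at 4.36 and 4.49 log2 CPM in AG120_AZA, 4.40 and 5.06 in AG120, 5.74 and 4.89 in AZA, and 4.97 and 5.28 in vehicle, with an AG120 difference of -0.64 ± 0.25 that did not pass. Egln2 and Hif1an, the asparaginyl hydroxylase, had differences of 0.27 and 0.25, so the family had no common direction. P4htm, a transmembrane prolyl hydroxylase, was read at 1.41 and 1.80 log2 CPM in AG120_AZA, -0.82 and -0.27 in AG120, -1.25 and 1.67 in AZA, and 1.66 and 0.98 in vehicle. At these levels it rested on 3 to 20 count steps per library, and its interaction of 3.25 ± 1.48 did not pass (limma adjusted p = 0.794).

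Of 20 measured HIF subunits and targets, 1 was called higher and 0 lower with AG120 over both AZA levels. Of all genes 5.85% were called in that comparison, and the list median was -0.08 against 0.01 for all genes. The one called, Hif3a, which encodes an alpha subunit, rose by 2.33 ± 0.47 (limma adjusted p = 0.0145) and stood at 2.97 and 3.70 log2 CPM in AG120_AZA, 3.10 and 2.74 in AG120, 1.41 and 0.13 in AZA, and 1.41 and 0.24 in vehicle. Slc2a1, a glucose transporter gene (-1.001 ± 0.31), and Ldha, a lactate dehydrogenase gene (0.41 ± 0.14), did not pass. In AG120_AZA against AZA, where 2.26% of all genes were called, Slc2a1 was the 1 called of the 20. It fell by 1.63 ± 0.37 on the log2 scale (limma adjusted p = 0.0492).

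**Figure D3:**
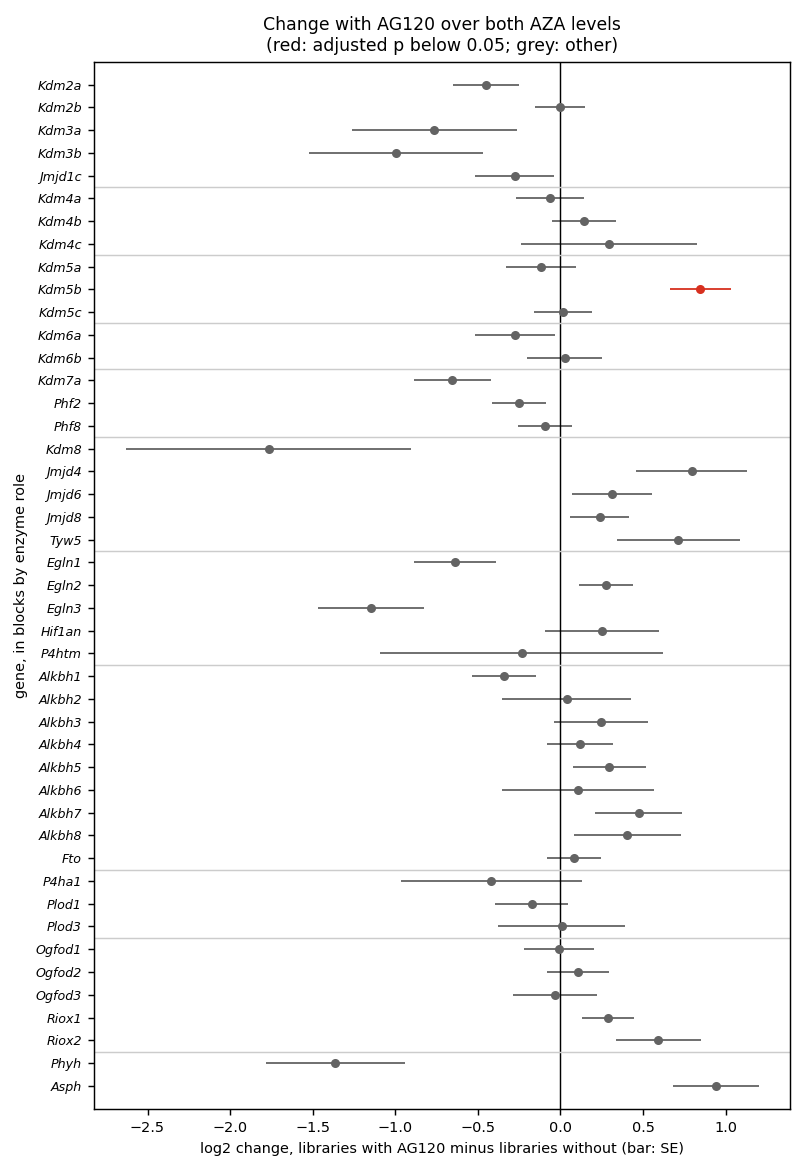
Log2 change with AG120 over both AZA levels (horizontal axis, point with SE bar) of the 45 measured genes, in blocks by enzyme role. Kdm5b, in red at 0.85, is the 1 gene with an adjusted p below 0.05. Asph (0.94), Kdm3b (-0.998), Egln3 (-1.15), Phyh (-1.36) and Kdm8 (-1.77) lie farther out with wider bars.

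Asph and Phyh were the other leading members with AG120. Asph encodes aspartyl beta-hydroxylase of the endoplasmic reticulum, and its locus also gives the non-enzymatic transcripts junctin and junctate, which 3′ counts per gene need not separate. It stood at 3.98 and 3.81 log2 CPM in AG120_AZA, 4.39 and 3.79 in AG120, 2.87 and 3.13 in AZA, and 3.21 and 2.99 in vehicle. All 4 libraries with AG120 were above the 4 without, with no overlap. The difference was 0.94 ± 0.26 and missed the threshold (limma adjusted p = 0.0546), with values from 0.81 to 1.05 when single libraries were left out, none of them passing. Phyh, which starts the breakdown of phytanic acid in peroxisomes, stood at 2.10 and 1.72 log2 CPM in AG120_AZA, 0.98 and 2.59 in AG120, 3.60 and 3.39 in AZA, and 2.49 and 3.36 in vehicle. Its AG120 difference of -1.36 ± 0.42 did not pass (limma adjusted p = 0.0777), and AG120 replicate 2 overlapped vehicle replicate 1.

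Members of the KDM2 and KDM3 families, which take methyl groups off H3K36 and H3K9, had negative AG120 differences in 5 of 5, from -0.998 in Kdm3b to -0.003 in Kdm2b, none called. Kdm2a stood at 5.33 and 5.26 log2 CPM in AG120_AZA, 5.25 and 5.89 in AG120, 5.80 and 5.75 in AZA, and 6.31 and 5.67 in vehicle (difference with AG120 -0.45 ± 0.20). Kdm3b was low in the combination: 0.98 and 0.30 log2 CPM in AG120_AZA, 2.66 and 2.24 in AG120, 3.28 and 1.73 in AZA, and 2.10 and 3.07 in vehicle. Both AG120_AZA libraries were below the other 6, with a difference from vehicle of -1.94 ± 0.68 that did not pass (limma adjusted p = 0.136) and rested on 15 and 5 count steps in AG120_AZA. Kdm3a, a known HIF target, overlapped between all groups, at 3.07 and 2.10 log2 CPM in AG120_AZA, 3.05 and 2.70 in AG120, 4.44 and 2.17 in AZA, and 4.44 and 2.94 in vehicle.

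The KDM7 and PHF demethylases, which bind methylated H3K4 and take methyl groups off other histone lysines, also had negative AG120 differences in 3 of 3, none called. Kdm7a stood at 4.05 and 4.41 log2 CPM in AG120_AZA, 3.98 and 4.31 in AG120, 4.68 and 5.09 in AZA, and 4.46 and 5.14 in vehicle (-0.65 ± 0.23, limma adjusted p = 0.117). All 4 libraries with AG120 lay below the 4 without. Phf2 stood at 5.65 and 5.51 in AG120_AZA, 6.05 and 5.86 in AG120, 6.02 and 5.66 in AZA, and 6.06 and 6.33 in vehicle. Its difference in AG120_AZA against vehicle was -0.61 ± 0.24 (adjusted p = 0.177).

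The H3K27 demethylases Kdm6a and Kdm6b and the KDM4 enzymes of H3K9 and H3K36 had no member called in any of the 8 comparisons. Kdm6a stood at 3.66 and 3.30 log2 CPM in AG120_AZA, 3.70 and 3.38 in AG120, 3.79 and 3.87 in AZA, and 3.81 and 3.69 in vehicle (AG120 difference -0.28 ± 0.24). Kdm4b stood at 5.96 and 6.003 in AG120_AZA, 5.52 and 5.36 in AG120, 5.26 and 5.76 in AZA, and 5.63 and 5.61 in vehicle (0.14 ± 0.19). Both AG120_AZA libraries held the highest Kdm4b values, with a difference from AG120 of 0.54 ± 0.25 that did not pass.

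Kdm8, a JmjC protein gene also known as Jmjd5, was the member with the widest range. It stood at 2.92 and -1.72 log2 CPM in AG120_AZA, 4.02 and 3.78 in AG120, 3.87 and 4.10 in AZA, and 4.01 and 4.09 in vehicle. The other 6 libraries lay between 3.78 and 4.10, and AG120_AZA replicate 2 was 1 count step above that library's lowest value, where AG120_AZA replicate 1 had 55. The difference from vehicle was -3.45 ± 1.06 (limma adjusted p = 0.0996) and it was set by that library: without AG120_AZA replicate 2 it was -1.13, and without AG120_AZA replicate 1 it was -5.77 (adjusted p = 0.000675).

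Of the 5 measured JmjC proteins in this role group, none was called with AG120: Kdm8 had a difference of -1.77 ± 0.86 and the other 4 had positive ones. Jmjd4, a hydroxylase of translation termination factor eRF1, stood at 2.77 and 3.81 log2 CPM in AG120_AZA, 3.40 and 3.19 in AG120, 2.03 and 2.54 in AZA, and 2.74 and 2.68 in vehicle. Each of the 4 libraries with AG120 was above each of the 4 without, and the difference was 0.79 ± 0.34 (limma adjusted p = 0.184). Tyw5, which hydroxylates a modified base of phenylalanine tRNA, had a difference of 0.71 ± 0.37 with AZA replicate 1 at 1.86 log2 CPM and the other libraries between 2.99 and 3.99.

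In the AlkB family, several of whose members take alkyl groups off DNA or RNA, 8 of 9 genes with Fto had positive AG120 differences, from 0.04 to 0.47. Alkbh1 had -0.34, and none was called. In the separate comparisons, 5 of the 9 were positive in AG120 against vehicle and 7 in AG120_AZA against AZA. Alkbh5, an eraser of N6-methyladenosine in RNA, stood at 5.33 and 4.91 log2 CPM in AG120_AZA, 5.43 and 5.74 in AG120, 5.09 and 5.27 in AZA, and 4.68 and 5.19 in vehicle. Fto, the other eraser of that mark, lay between 6.01 and 6.57 log2 CPM in all libraries (AG120 difference 0.08 ± 0.16). Alkbh7, a mitochondrial member, stood at 4.90 and 5.45 in AG120_AZA, 5.25 and 4.70 in AG120, 4.25 and 5.27 in AZA, and 4.65 and 4.22 in vehicle.

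The repair enzymes Alkbh2 and Alkbh3 had lower group means with 1 drug than with both or none, and neither passed. Alkbh3 stood at 5.32 and 5.77 log2 CPM in AG120_AZA, 5.12 and 4.53 in AG120, 4.40 and 4.91 in AZA, and 5.09 and 5.36 in vehicle, with an interaction of 1.29 ± 0.45 (limma adjusted p = 0.794). Alkbh2 stood at 3.27 and 2.58 in AG120_AZA, 2.46 and 2.57 in AG120, 2.40 and 1.97 in AZA, and 3.50 and 2.85 in vehicle (interaction 1.40 ± 0.69). Both genes end within 500 bases of exons on the opposite strand, Alkbh3 at Alkbh3os1 and Alkbh2 at Usp30, and the sources used here do not say whether counting used strand. The same holds for Kdm2b (at Rnf34), Jmjd8 (at Stub1), Egln2 (at Cyp2t4) and Riox2 (at Crybg3). Alkbh4, a demethylase of proteins in that family, stood at 5.84 and 5.87 in AG120_AZA, 5.57 and 5.21 in AG120, 5.52 and 5.84 in AZA, and 5.69 and 4.96 in vehicle (AZA difference 0.41 ± 0.20, adjusted p = 0.771).

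Collagen hydroxylases and the Ogfod and Riox genes had no member called. P4ha1, a catalytic subunit of collagen prolyl hydroxylase and a known HIF target, stood at 1.14 and 0.08 log2 CPM in AG120_AZA, 2.09 and 2.53 in AG120, 2.40 and 1.41 in AZA, and 1.30 and 2.39 in vehicle, on 4 count steps in AG120_AZA replicate 2. Plod1, a lysyl hydroxylase, stood at 3.800 and 3.93 log2 CPM in AG120_AZA, 3.798 and 4.07 in AG120, 4.06 and 4.27 in AZA, and 3.95 and 4.01 in vehicle (AG120 difference -0.17 ± 0.22). Riox2, a histidyl hydroxylase of ribosomal protein, stood at 4.77 and 5.17 in AG120_AZA, 4.89 and 4.71 in AG120, 4.54 and 4.19 in AZA, and 3.66 and 4.78 in vehicle (AG120 difference 0.59 ± 0.26, limma adjusted p = 0.198). The 5 genes Ogfod1, Ogfod2, Ogfod3, Riox1 and Riox2 had AG120 differences from -0.04 to 0.59.

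The effect of a drug can be read in 2 arms that share no library, and the arms were set side by side for the members. AG120 against vehicle and AG120_AZA against AZA had the same sign in 29 of 45 members, 64.4%, where all genes also gave 64.4%. The correlation between these arms was 0.20 across members and 0.43 across all genes. P4htm (-1.86 and 1.39) and Kdm8 (-0.15 and -3.38) differed widely between them, with as few as 3 and 1 count steps in a library. The correlation without these genes was not computed. AZA against vehicle and AG120_AZA against AG120 had the same sign in 22 of 45 members, 48.9%, where all genes gave 50.4%, with correlations of -0.20 across members and 0.03 across all genes. Genes of the same libraries are not independent replicates. Kdm5b was positive in all 4 differences, but each library enters 2 of them, so they are not independent readings.

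**Figure D4:**
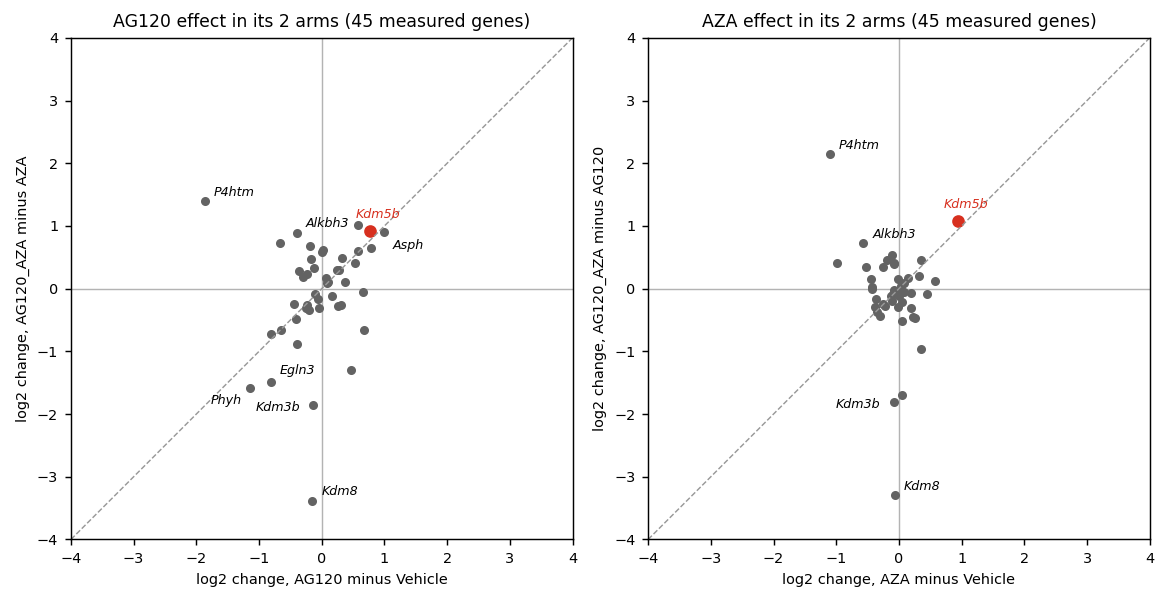
Log2 change of the 45 measured genes for AG120 (left) and AZA (right), with the arm that includes the other drug on the vertical axis and the arm against vehicle on the horizontal axis; the dashed line marks equal change. Kdm5b, in red, lies near that line at 0.77 and 0.92 on the left and at 0.94 and 1.09 on the right, while Kdm8 and Kdm3b lie low on the vertical axes.

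Genes that supply 2-oxoglutarate or work beside these enzymes were set beside them. Of 18 measured genes of 2-oxoglutarate supply and 2-hydroxyglutarate removal, 0 were called higher and 2 lower with AG120 over both AZA levels. Of all genes, 5.85% were called there in either direction. The list had 11 positive and 7 negative differences, with a median of 0.15 against 0.01 for all genes. Idh2, the mitochondrial isocitrate dehydrogenase, fell by 0.56 ± 0.13 on the log2 scale (limma adjusted p = 0.0317), and Glud1, glutamate dehydrogenase, which yields 2-oxoglutarate, fell by 0.96 ± 0.25 (adjusted p = 0.0437). Glud1 stood at 7.98 and 6.98 log2 CPM in AG120_AZA, 8.02 and 8.13 in AG120, 9.18 and 8.21 in AZA, and 8.66 and 8.89 in vehicle. All 4 libraries with AG120 were below the 4 without it.

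None was called with AG120 over both AZA levels among 8 other measured 2-oxoglutarate oxygenases, 21 histone methyltransferases and 11 writers and readers of N6-methyladenosine. The same held for 4 collagen-processing partners and the 2 FAD demethylases. The share of all genes called there was 5.85%. Of the histone methyltransferases 17 had negative differences (median -0.09 against 0.01 for all genes). Leading among these lists were Jmjd7 (1.62 ± 0.54), Suv39h1, which methylates H3K9 (0.51 ± 0.17), and Crtap, a partner in collagen prolyl hydroxylation (-0.68 ± 0.21), with limma adjusted p of 0.0958, 0.0897 and 0.0762.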

How the data were processed

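QuantSeq 3′ libraries were made from sorted I1DN cells. The submitters' processing notes name edgeR 3.28.1, limma 3.42.2, R 3.6.2, Subread 1.6.3 with featureCounts, HISAT2 2.1.0, cutadapt 1.14, bcl2fastq 2.17.1.14 and build mm10, with no role or order. The deposited table holds log2 CPM values from the authors' voom step, per the file name; all 8 libraries share a highest value of 13.37 and nearly one distribution. The authors' filter on low counts is unknown from the sources used here. A count step is the rank of a value among a library's distinct values, a lower bound on its reads above the lowest class.

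The deposited log2 values were fitted with limma 3.58.1 in R 4.3.3 (lmFit, eBayes with a mean-variance trend, two-sided): a model of 4 group means (4 residual, 7.06 prior degrees of freedom) for pairwise differences and the interaction, and an additive model (5 residual, 6.85 prior) for each drug over both levels of the other. P-values were adjusted by Benjamini-Hochberg over all 12294 genes and called below 0.05. Errors are moderated SE. The fit was tested on simulated data.

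Members and lists were chosen with earlier results of these data known. Values per library are given for members called in any comparison, the 3 of smallest p in each comparison, and the member of smallest p in each role group with AG120; from other lists, the genes called and at most 3 others by p are named; further members named were chosen after their values were seen. Symbols were matched to GENCODE M21 (45 of 45 measured members). At the 3′ end, exons of another gene lay within the last 500 bases of 6 members, each time on the opposite strand. Fits without the trend, with vooma weights, on genes of mean log2 value of at least 5, with a replicate block, on only the groups compared, and without each library in turn were alternatives. Replicate numbers did not pair the libraries.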

Additional observations from a re-analysis of the deposited data

How the results depend on the processing

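With 2 libraries a group and unknown depth, 1 library can decide a count. Without the mean-variance trend the members called fell to 0, against 1, in AG120_AZA against vehicle and in AG120 over both AZA levels, and all genes called numbered 0 in AG120 against vehicle, 2 in AZA against vehicle, 43 in AG120_AZA against vehicle, 9 in AG120_AZA against AZA and 211 for AG120 over both levels, against 71, 0, 371, 278 and 719. Vooma weights gave 39 in AG120 against vehicle. With genes of mean log2 value of at least 5, fewer genes were tested and 23, 82, 67 and 369 were called in AG120 against vehicle, AG120_AZA against vehicle, AG120_AZA against AZA and AG120 over both levels. With only the groups compared, 18 were called in AG120 against vehicle, 1 in AZA against vehicle and 200 in AG120_AZA against vehicle. Apart from these constructions, the cause was not tested.

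Replicate numbers did not pair the libraries: replicate 1 minus replicate 2 correlated between groups across genes at -0.11 to 0.19. With the replicate block the members called for AG120 over both AZA levels were 2 against 1, with Egln3 beside Kdm5b (limma adjusted p = 0.0460). The main fit called 5.85% of all genes in that comparison. The block changed no other count of members called or any count of all genes by over 1.5 times.

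When single libraries were left out, a lone library is assumed to vary like the other groups. All genes called ranged from 8 to 103 in AG120 against vehicle, 0 to 1 in AZA against vehicle, 37 to 727 in AG120_AZA against vehicle, 14 to 594 in AG120_AZA against AZA, 0 to 213 in AG120_AZA against AG120, 201 to 771 for AG120 over both AZA levels and 0 to 29 for the interaction. Members called ranged from 0 to 2 in AG120_AZA against vehicle, 0 to 1 in AG120_AZA against AZA, AG120_AZA against AG120 and the interaction, and 0 to 3 for AG120 over both levels. The Kdm5b interaction ranged from -0.15 to 0.45 and the Kdm4b AG120 difference from -0.02 to 0.24, negative (-0.020) without AZA replicate 1. The 31 other log2 differences followed kept their sign in each of the 8 omissions.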

Other observations

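Kdm8 in AG120_AZA replicate 2 was 1 count step above that library's lowest value, at -1.72 log2 CPM, while AG120_AZA replicate 1 stood at 2.92 and the other 6 libraries between 3.78 and 4.10. In that library 4 of the 45 measured members lay under 10 count steps, against 0 or 1 in each other library, and 11.9% of all genes did, against 6.85% to 9.74% elsewhere.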
